A study of Mus musculus with 21 samples.

Results

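The data described here compare bone marrow mesenchymal cells of mice carrying the human acute myeloid leukemia (AML) line HL60 with the same sorted cells of mice carrying the AML line ML1, both at a late stage of the leukemia. The libraries were chosen by their titles: replicates 397, 398 and 399 for HL60 late and 581, 582 and 583 for ML1 late, which makes 6 of the 21 libraries of the series. RNA was sequenced from cells sorted for low green fluorescence of a Nestin reporter (Nes-low). HL60 and ML1 had been made to release sLP-mCherry, a red fluorescent protein that enters neighbouring cells and so marks the cells close to the leukemia.

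Every mouse was of the NSG strain with a Nestin-GFP transgene. NSG mice lack functional lymphocytes and accept human cells without conditioning, and those that received leukemia were 8 to 12 weeks old at the transplant. The HL60 late and ML1 late groups held 3 libraries each, from mice with advanced engraftment, and their cells were collected without regard to the red label. The ctrl group held 3 libraries from mice without leukemia. A further 3 libraries for each line came from red-labelled (ch+) cells at an early stage, and 3 for each line from unlabelled (ch-) cells of that stage. The ch- libraries entered the statistical model for the estimate of spread and are not compared here. The reporter is driven by Nestin regulatory sequences, so the sorted fraction is a mixture defined by brightness and not by lineage. The labels do not say whether the libraries of a group came from separate mice, and so the p-values below measure the spread between libraries, which may be technical.

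Mesenchymal cells of the marrow make the factors that hold and feed blood stem cells, among them the chemokine Cxcl12 and the growth factor Kitl. They also give rise to bone-forming osteoblasts, which lay down type I collagen and mineralize it with the help of osteocalcin and phosphatases. Leukemia in the marrow is known to disturb both functions, and cells under stress additionally switch on heat shock proteins, immediate early transcription factors and inflammatory chemokines.

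The treatment field of the labels calls the ML1 late libraries unengrafted, whereas their titles and time point field place them at the late stage, where they were kept. Their values did not lie with ctrl. Across the 12976 tested genes, the correlation of log2 values between an ML1 late and a ctrl library was 0.88 to 0.904, between an HL60 late and a ctrl library 0.915 to 0.931, and between an HL60 late and an ML1 late library 0.948 to 0.963. Within a group it was 0.965 to 0.969 for HL60 late and 0.972 to 0.976 for ML1 late. These correlations run across genes, which are not independent replicates. Every HL60 late library was closer to each of its own group than to any ML1 late library, and the reverse held too.

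The labels' extraction text names CD31-positive endothelial sorting, while the sample fields name Nes-low mesenchymal cells, and the sorting markers bear on this. *Nes* itself (the reporter's parent gene) had log2 values of 7.38, 6.73 and 6.66 in HL60 late and 7.87, 7.34 and 7.84 in ML1 late. The endothelial marker *Pecam1*, which encodes CD31, had 4.67, 5.22 and 5.60 in HL60 late and 4.54, 4.62 and 4.53 in ML1 late. The leukocyte marker *Ptprc* encodes CD45, by which the methods removed mouse blood cells before the sort, and it lay near the floor at 2.54, 2.44 and 2.44 in HL60 late and 2.36, 2.37 and 2.44 in ML1 late. It passed the filter through the early libraries, so its difference between the late lines is not read as a result. The mesenchymal gene *Cxcl12* reached 16.21, 16.44 and 16.10 in HL60 late and 15.95, 16.13 and 16.22 in ML1 late. *Lepr*, the leptin receptor of marrow stroma, had 14.29, 14.51 and 14.36 in HL60 late and 14.73, 14.73 and 14.81 in ML1 late. Of 27 listed endothelial genes 21 were tested, with *Eng* the most abundant in the late libraries, and their values are given below. *Tie1*, *Cldn5*, *Egfl7* and *Sox17* were among those too low to be tested. No difference between the lines was called for *Nes* (−0.76, adjusted p 0.212) or *Pecam1* (0.60, adjusted p 0.664). *Nes* was called lower in HL60 late after rescaling to equal library totals (−1) and with sample weights (−0.82).

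All values are regularized expression values as deposited, read as log2, so that a difference of 1 is a factor of 2. The methods give the base of the logarithm as 10, on which the highest value of 22.44 would exceed any number of reads. Unless stated otherwise, a difference is HL60 late minus ML1 late, its standard error (SE) and p come from limma with 3 libraries a group, and p is two-sided and Benjamini-Hochberg adjusted over the 12976 genes whose mean over the 21 libraries was at least 3.32. A gene is called when its adjusted p is under 0.1. Regularization draws the values of low genes together, so their differences are understated. Read counts cannot be worked back from such values, and the methods give a typical yield alone, so the depth of each library is not known. Gene positions are on build GRCm38, and gene IDs are those of the deposited table.

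The libraries of the lines differed in more than single genes. The summed normalized signal of a library was 8720000, 9020000 and 8410000 in HL60 late and 7460000, 7260000 and 7320000 in ML1 late, against 11900000, 12800000 and 14200000 in ctrl. A predicted gene inside the ribosomal RNA unit, CT010467.1, took 24.1%, 26.2% and 25.2% of that signal in HL60 late and 22.6%, 16.8% and 21.3% in ML1 late, and 29.7% to 34.2% in ctrl. *Col1a1* took 5.02%, 4.97% and 4.19% in HL60 late and 1.35%, 0.764% and 0.933% in ML1 late. ML1 late replicate 582 had a mitochondrial share of 1.44%, against 0.85% to 0.905% in the other 5 late libraries. Cell line and handling cannot be told apart, since each line's libraries carry their own run of numbers and the labels give no date of sorting or sequencing.

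Between the lines, 531 of 12976 genes were called at the late stage (4.09%). Of these, 410 were higher in HL60 late (3.16%) and 121 were lower (0.932%), and 1419 genes had an unadjusted p under 0.05 (10.9%). Of the 115 called genes named here, 25 lost the call with no filter and 25 with no variance trend. The median difference over all tested genes was 0.005. Rescaling every library to the same total lowers every difference by 0.25. It moved that median to −0.24, and then 705 genes were called, 37% of them higher in HL60 late in place of 77.2%. With quantile normalization 73.2% of the calls were higher in HL60 late, and 68.5% with libraries shifted to the same median. The split of the calls by direction therefore depends on the scaling, most of all on rescaling to equal totals. Those totals include CT010467.1 and *Col1a1*, whose shares differed between the lines. The directions below are stated for the deposited scaling. In 514 of the 531 called genes the libraries of the lines did not overlap, against 2825 of all tested genes (21.8%). Among the 410 higher genes the median difference was 1.37, and 69 differed by 2 or more. Among the 121 lower genes it was −0.89, and 4 differed by 2 or more.

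**Figure D1:**
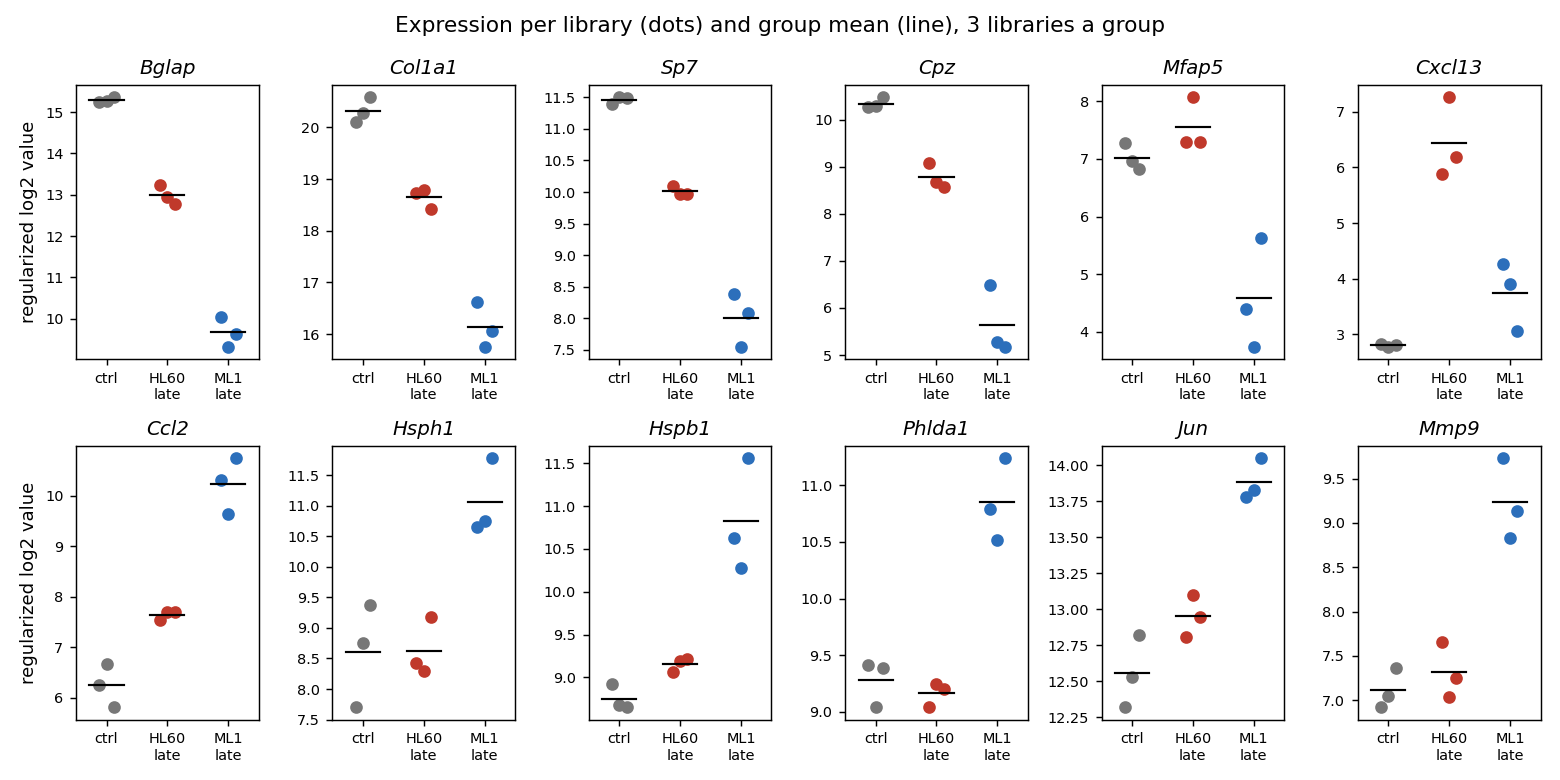
Regularized log2 expression value (vertical axis) of 12 genes in each of the 3 libraries of ctrl, HL60 late and ML1 late, with a line at each group mean. The 12 genes were chosen from those without overlap between the late lines. The HL60 late libraries lie above the ML1 late libraries for *Bglap*, *Col1a1*, *Sp7*, *Cpz*, *Mfap5* and *Cxcl13* and below them for the other 6 genes.

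Of 22 tested osteoblast genes, 18 were called higher in HL60 late than in ML1 late, beside 3.16% of all genes. *Bglap* (ENSMUSG00000074483, chr3:88383501-88384464, minus strand) encodes osteocalcin, a small protein that osteoblasts secrete into bone. Its values were 13.24, 12.94 and 12.77 in HL60 late, 10.04, 9.32 and 9.63 in ML1 late and 15.25, 15.27 and 15.36 in ctrl. Every HL60 late library was below every ctrl library. The difference was 3.32 (SE 0.15, adjusted p 1.1e-15), a factor of 9.97. Its neighbour *Bglap2* (chr3:88377736-88378699, minus strand) gave 13.08, 12.91 and 12.67 against 10.14, 9.40 and 9.66, a difference of 3.15 (adjusted p 3.6e-15), and *Bglap3* gave 7.98, 7.73 and 7.63 against 5.71, 4.78 and 5, a difference of 2.62 (adjusted p 2.35e-10). The osteocalcin genes are near-identical copies, so how reads were divided among them is uncertain.

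The collagen that osteoblasts deposit followed the same order of groups. *Col1a1* (ENSMUSG00000001506, chr11:94936224-94953042, plus strand), the alpha 1 chain of type I collagen, had 18.74, 18.78 and 18.43 in HL60 late, 16.62, 15.76 and 16.06 in ML1 late and 20.10, 20.27 and 20.58 in ctrl. It differed by 2.5 (SE 0.16, adjusted p 3.64e-12). *Col1a2*, the partner chain, differed by 2.26 (adjusted p 8.28e-13) with values of 17.97, 18 and 17.66 against 15.92, 15.39 and 15.54. *Sp7*, the transcription factor osterix that commits cells to the osteoblast lineage, had 10.09, 9.97 and 9.97 against 8.38, 7.55 and 8.09, a difference of 2.01 (SE 0.18, adjusted p 3.56e-09). *Runx2*, the factor that acts before it, had 11.71, 11.52 and 11.49 against 11.30, 11.18 and 11.02, and its difference of 0.41 missed the threshold (adjusted p 0.11).

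Genes of mineralization were among those called higher. *Phospho1* (chr11:95824499-95832140, plus strand), a phosphatase that starts mineral formation inside matrix vesicles, had 9.28, 8.54 and 8.63 in HL60 late and 6.52, 5.26 and 6.03 in ML1 late, and differed by 2.88 (SE 0.24, adjusted p 4.67e-10). *Alpl*, the alkaline phosphatase that removes the inhibitor pyrophosphate, had 12.08, 11.92 and 11.70 against 10.10, 9.47 and 9.80 and differed by 2.11 (adjusted p 4.47e-11). *Slc13a5* (chr11:72241989-72267222, minus strand), a citrate transporter of osteoblasts, had 9.67, 9.85 and 9.14 against 7.49, 6.38 and 6.12 and differed by 2.89 (SE 0.24, adjusted p 4.67e-10). Of the osteocyte genes, *Dmp1* differed by 1.77 (adjusted p 2.53e-06) and *Phex* by 1 (adjusted p 6.76e-07), whereas *Mepe* differed by 0.63 and was not called (adjusted p 0.71). In ctrl the mean of *Dmp1* was 10.68, between means of 10.90 for HL60 late and 9.13 for ML1 late.

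The osteoblast list as a whole had 0 members called lower and a median difference of 2.06, beside 0.005 over all genes. After rescaling to equal totals 18 were called higher, with a median of 1.81. The 4 members not called were *Runx2*, *Mepe*, *Dlx5* (0.47) and *Tnfsf11* (0.18), which encodes the osteoclast-inducing ligand RANKL. *Tnfsf11* was called higher than ctrl in both lines, by 2.59 in HL60 late and 2.42 in ML1 late. Against ctrl, 17 members were called lower in HL60 late (7.24% of all genes, 13.7% in either direction) and 19 in ML1 late (12.1%, 22% in either direction), with medians of −1.33 and −3.22. These comparisons share the ctrl libraries and are given side by side only. In bulk RNA, fewer osteoblasts among the sorted cells and less of each transcript per cell cannot be told apart.

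Of 22 tested cartilage genes, 12 were called, all higher in HL60 late than in ML1 late, beside 3.16% of all genes. *Col11a2* (chr17:34039437-34066685, plus strand), a fibrillar collagen chain of cartilage, had 12.29, 12 and 11.86 in HL60 late and 9.78, 9.30 and 9.32 in ML1 late, and differed by 2.58 (SE 0.15, adjusted p 4.94e-13). *Chad*, a matrix protein that binds collagen, had 10.74, 12.22 and 10.39 against 8, 9.20 and 8.42 and differed by 2.58 (adjusted p 0.00229), a call lost with no filter. *Col9a3*, a chain of the collagen that coats cartilage fibrils, had 8.33, 8.31 and 7.19 against 5.23, 6.22 and 4.51 and differed by 2.62 (SE 0.73, adjusted p 0.0396). The *Col9a3* call was lost without HL60 late replicate 397 (2.43) or 398 (2.44) and without ML1 late replicate 581 (2.58) or 583 (2.22). *Sox9*, the master regulator of chondrocytes, had 7.60, 8.20 and 7.39 against 7.46, 5.93 and 7.34 and was not called (0.82, adjusted p 0.377). *Acan* was not called either (1.16, adjusted p 0.417). The list median was 1.71, and 10 members were called after rescaling, all higher. Against the shared ctrl, 21 members were called lower in each line, beside 7.24% of all genes in HL60 late and 12.1% in ML1 late.

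Large positive differences were also called for genes outside the osteoblast and cartilage lists. *Cpz* (ENSMUSG00000036596, chr5:35502218-35525698, minus strand), a carboxypeptidase with a Wnt-binding domain, had 9.07, 8.68 and 8.57 in HL60 late, 6.48, 5.28 and 5.18 in ML1 late and 10.26, 10.29 and 10.47 in ctrl, a difference of 3.13 (SE 0.25, adjusted p 2.72e-10). The microfibril protein *Mfap5* (chr6:122505845-122529290, plus strand) had 7.29, 8.07 and 7.29 in HL60 late, 4.40, 3.74 and 5.62 in ML1 late and 7.27, 6.96 and 6.83 in ctrl, a difference of 2.97 (SE 0.35, adjusted p 7.49e-07). For *Mfap5* every HL60 late library lay above every ctrl library, and the ML1 late libraries lay below them. The difference from ctrl was not called in HL60 late (0.53, adjusted p 0.433) but was in ML1 late (−2.44, adjusted p 4.37e-06). *Mfap4*, which binds elastic fibres, had 6.31, 6.91 and 7.05 in HL60 late, 3.40, 3.77 and 4.55 in ML1 late and 4.51, 4.96 and 4.20 in ctrl, a difference of 2.85 (SE 0.42, adjusted p 2.57e-05). Here ML1 late overlapped ctrl and HL60 late stood above both. *Car3*, a carbonic anhydrase abundant in fat and muscle, had 11.95, 11.60 and 11.44 against 8.98, 9.20 and 8.91 and differed by 2.63 (adjusted p 2.38e-14). It was the called gene of the 15 tested in the adipocyte list, beside 3.16% of all genes called higher. The list median was 0.41, with 10 of the 15 positive, and 0.16 after rescaling, when 1 was called. *Lrrc15*, a membrane protein of matrix-making fibroblasts, had 7.32, 6.75 and 7.62 against 4.47, 4.47 and 5.13 and differed by 2.54 (adjusted p 0.000188).

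Of 44 interstitial matrix genes tested, 21 were called higher in HL60 late and 3 lower, beside 3.16% and 0.932% of all genes, with a median of 0.68, and after rescaling 17 and 5. The higher members included the small proteoglycans *Dcn* (1.80), *Lum* (1.46), *Fmod* (2.25) and *Omd* (2.15), which space collagen fibrils, and the adhesive glycoproteins *Fn1* (0.94) and *Thbs4* (2.47). The 3 lower members were the fibrillar collagen chain *Col5a3* (−1.10, adjusted p 0.00903) and the beaded-filament chains *Col6a1* (−0.77, adjusted p 0.000844) and *Col6a2* (−0.77, adjusted p 0.00275). *Col6a1* had 12.94, 12.66 and 12.91 in HL60 late and 13.80, 13.24 and 13.77 in ML1 late, and its ctrl mean was 11.70. Every library of both lines thus lay above the ctrl mean for *Col6a1*, ML1 late the further. Among 19 basement membrane genes, *Col4a1* (−0.50), *Col4a2* (−0.47) and the laminin chain *Lama4* (−0.55) were called lower and *Sparc*, a collagen-binding protein of bone, was called higher (1.47, not called with quantile normalization at 0.61). The list median was 0.27, and after rescaling 1 was called higher and 5 lower. Each lower call depended on 1 or more libraries: that of *Col4a1* was lost without ML1 late replicate 583 (−0.40), that of *Col4a2* without HL60 late replicate 397 (−0.46), 398 (−0.47) or 399 (−0.48) and without ML1 late replicate 581 (−0.40) or 583 (−0.41) and with quantile normalization (−0.42), and that of *Lama4* without HL60 late replicate 397 (−0.54) or 398 (−0.50) and without ML1 late replicate 581 (−0.49) or 583 (−0.56).

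Enzymes that cut matrix differed in both directions. *Mmp9* (chr2:164940780-164955850, plus strand), a gelatinase, had 7.66, 7.04 and 7.25 in HL60 late, 9.73, 8.83 and 9.13 in ML1 late and 6.92, 7.05 and 7.36 in ctrl, a difference of −1.92 (SE 0.35, adjusted p 0.000528). The HL60 late libraries overlapped ctrl and the ML1 late libraries lay above both. *Mmp2* and *Mmp16* were higher in HL60 late, by 1.06 and 2.17. *Timp3*, an inhibitor bound to matrix, was lower in HL60 late, with a difference of −0.93. The list counted 5 higher and 4 lower of 34, beside 3.16% and 0.932% of all genes, with a median of 0.11 that became −0.13 after rescaling, when 4 were called higher and 7 lower.

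Among genes of the bone morphogenetic protein (BMP) and TGF-beta pathways, 12 of 49 tested genes were called higher in HL60 late and 1 lower, beside 3.16% and 0.932% of all genes. The list median was 0.19, and −0.06 after rescaling, when 9 were called higher and 1 lower. *Bmp3* (chr5:98854415-98884396, plus strand), an atypical ligand made by osteoblasts that restrains bone formation, had 11.29, 11.50 and 10.87 in HL60 late and 8.96, 8.63 and 8.34 in ML1 late, and differed by 2.58 (SE 0.18, adjusted p 1.57e-11). The ligands *Bmp4* (1.27) and *Bmp7* (1.61) were called higher too. *Fst*, the secreted trap for activins, had 8.73, 10.10 and 9.31 against 7.65, 8.09 and 8.40 and a ctrl mean of 6.83, a difference of 1.33 (adjusted p 0.0431). The *Fst* call was lost without HL60 late replicate 398 (0.97) and without ML1 late replicate 581 (1.14) or 582 (1.35) and after rescaling (1.09). The exception in direction was *Inhba*, the subunit of activin A, with 7.65, 6.95 and 7.29 in HL60 late and 8.77, 9.12 and 8.67 in ML1 late, a difference of −1.56 (SE 0.31, adjusted p 0.0014). Of the pathway's immediate targets, *Id1* (1.77) and *Id3* (0.85) were called higher, as was the receptor-regulated factor *Smad9* (1.88).

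Of the 42 Wnt pathway genes tested, 10 were called, all higher in HL60 late, beside 3.16% of all genes, with a median of 0.34, and after rescaling 3 were called and the median was 0.09. *Sfrp2*, a soluble Wnt modulator, had 9.96, 9.19 and 10.28 in HL60 late, 8.23, 7.57 and 8.02 in ML1 late and a ctrl mean of 7.57, and differed by 1.87 (SE 0.27, adjusted p 1.54e-05). The secreted inhibitor *Dkk1* (1.66) and the related *Dkk3* (0.92) were called in the same direction as the ligand *Wnt4* (0.80). The *Dkk3* call was lost without HL60 late replicate 399 (0.75) and without ML1 late replicate 582 (0.82) or 583 (0.85) and after rescaling (0.67), and the *Wnt4* call without HL60 late replicate 398 (0.76) or 399 (0.75) and without ML1 late replicate 582 (0.80) or 583 (0.74) and after rescaling (0.55). Among 42 ligands and receptors of the IGF, PDGF, FGF and VEGF families, 10 were called higher and 1 lower, beside 3.16% and 0.932% of all genes, and after rescaling 5 and 9. *Igf1*, the insulin-like growth factor, had 12.26, 12.74 and 12.43 in HL60 late and 10.84, 11.28 and 11.21 in ML1 late, and differed by 1.37 (adjusted p 8.99e-05). Its ctrl mean was 10.46, under both lines. *Pdgfrb*, the platelet-derived growth factor receptor of pericytes and stroma, was the lower member, with 12.84, 12.59 and 12.69 against 13.34, 13.08 and 13.46, a difference of −0.58 (adjusted p 0.0239) and a ctrl mean of 11. Its call was lost without HL60 late replicate 398 (−0.53) and without ML1 late replicate 583 (−0.50).

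Guidance molecules and channels added further genes in the HL60 direction. The semaphorins *Sema3a* (1.19), *Sema3c* (1.78) and *Sema3d* (1.81), which steer growing axons, and the guidance receptor *Robo2* (1.56) were called higher in HL60 late. They belong to a list of 32 neural and Schwann-related genes with 9 called, all higher, beside 3.16% of all genes, and after rescaling with 7 higher and 1 lower. Of 30 ion transport genes, 6 were called, all higher, beside 3.16% of all genes, and after rescaling 6 were higher and 1 lower. The called genes included the potassium channels *Kcnk1* (2.31) and *Kcnma1* (1.88). *Kcnk1* had 7.65, 7.46 and 7.25 in HL60 late and 4.87, 5.73 and 4.85 in ML1 late.

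Of 28 tested factors that support blood stem cells, 3 were called between the lines, beside 4.09% of all genes. *Cxcl12* differed by 0.15 (adjusted p 0.925), *Kitl* by −0.13 (adjusted p 0.954), *Lepr* by −0.37 (adjusted p 0.327) and *Angpt1* by 0.09 (adjusted p 0.982). *Cxcl12* was called lower with quantile normalization (−1.35) and *Lepr* after rescaling (−0.61). Quantile normalization sets each value by its rank in the library. *Col1a1* and *Col1a2* lay above *Cxcl12* in every HL60 late library, while *Col1a2* lay below it in every ML1 late library. The −1.35 therefore includes a shift of rank, where the deposited values differed by 0.15. A p above the threshold does not show that the levels are equal. Among those called was *Gas6* (chr8:13465374-13494490, minus strand), the ligand of the TAM receptor kinases, with 12.81, 13.26 and 12.80 in HL60 late, 11.31, 11.34 and 11.34 in ML1 late and 11.62, 11.10 and 11.18 in ctrl. It differed by 1.63 (SE 0.16, adjusted p 2.55e-08), with every ML1 late library inside the ctrl range and every HL60 late library above it. The calls were 2 higher (*Gas6* and *Spp1*, 0.62) and 1 lower (*Pdgfrb*), with a list median of −0.01, which was 0.05 without ML1 late replicate 583. The *Spp1* call was lost without HL60 late replicate 398 (0.38) and without ML1 late replicate 583 (0.48) and after rescaling (0.37). After rescaling the median was −0.26, with 1 called higher and 6 lower. Against the shared ctrl, 21 members were called higher in HL60 late (6.46% of all genes) and 21 in ML1 late (9.89%).

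*Kit*, the receptor that Kitl binds, is borne by blood stem cells and mast cells. Its values were 6.55, 6.95 and 7.49 in HL60 late, 3.81, 5.30 and 4.27 in ML1 late and 5.72, 5.99 and 5.22 in ctrl, a difference of 2.54 (SE 0.43, adjusted p 0.000182). The other mast cell genes of the list, *Cpa3*, *Mcpt8*, *Ms4a2* and *Prss34*, were too low to be tested. The summed signal of the megakaryocyte and mast cell list was 142, 170 and 237 in HL60 late and 63.5, 99.5 and 73.5 in ML1 late, with *Kit* its most abundant gene in each HL60 late library.

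**Figure D2:**
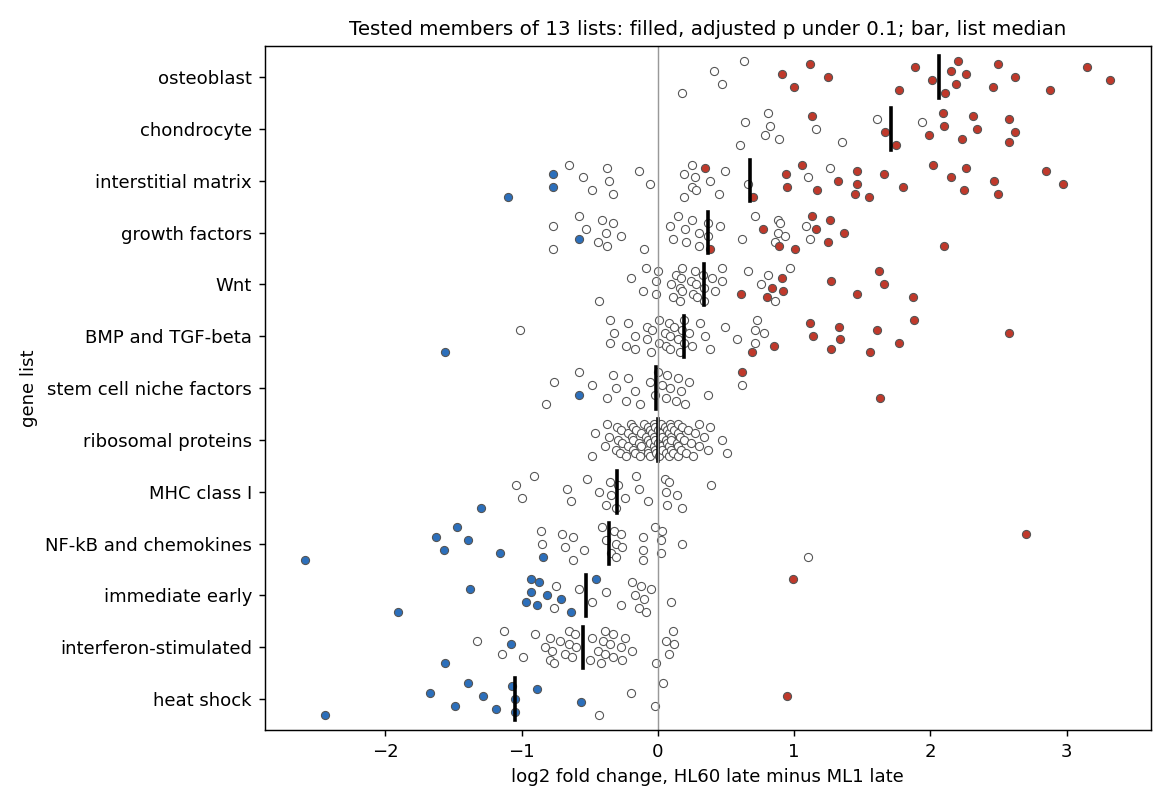
Log2 fold change between HL60 late and ML1 late (horizontal axis) of every tested member of 13 gene lists, filled where the adjusted p is under 0.1 (red higher, blue lower in HL60 late), with a bar at each list median. The osteoblast median is 2.06 and the heat shock median −1.05, while the 86 ribosomal protein genes have a median of 0 and 0 called members. After rescaling to equal totals the BMP and TGF-beta median becomes −0.06.

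Of 16 tested heat shock genes, 11 were called lower in HL60 late than in ML1 late and 1 higher, beside 0.932% and 3.16% of all genes. *Hsph1* (ENSMUSG00000029657, chr5:149614287-149636376, minus strand), a nucleotide exchange factor that helps Hsp70 dissolve protein aggregates, had 8.42, 8.29 and 9.18 in HL60 late, 10.66, 10.75 and 11.78 in ML1 late and 7.70, 8.75 and 9.38 in ctrl. The HL60 late libraries lay within the ctrl range and the ML1 late libraries above it. The difference was −2.44 (SE 0.35, adjusted p 1.84e-05), a factor of 5.41. *Hspb1* (chr5:135887919-135889563, plus strand), a small chaperone of the cytoskeleton, had 9.06, 9.19 and 9.21 against 10.63, 10.28 and 11.56 and differed by −1.67 (SE 0.28, adjusted p 0.000218). *Hsp90aa1*, the inducible Hsp90, had 11.25, 11.36 and 11.54 against 12.59, 12.52 and 13.52 and differed by −1.49 (adjusted p 3.89e-06). *Dnajb1*, a co-chaperone of Hsp70, had 9.60, 9.32 and 9.35 against 10.30, 10.83 and 10.97 and differed by −1.28 (adjusted p 0.00275). In all 4 genes, replicate 583 was the highest of the ML1 late libraries.

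The heat shock list had a median of −1.05, and after rescaling 12 were called, all lower. The called Hsp70 genes *Hspa1a* (−1.05) and *Hspa1b* (−1.07, not called with no filter) are near-identical copies whose reads cannot be divided with certainty. The constitutive *Hspa8* was called as well (−0.89), with 12.27, 12.57 and 12.49 against 13.13, 13.39 and 13.50. The member called higher was *Cryab* (0.95, adjusted p 0.0287), a small chaperone of muscle and stroma, whose call was lost without HL60 late replicate 397 (0.80) and without ML1 late replicate 582 (0.69) and after rescaling (0.70). *Hspa4* (−0.02), *Bag3* (−0.43, called at −0.67 after rescaling), *Chordc1* (0.04) and the master regulator *Hsf1* (−0.20) were not called. The summed signal of the list was 25600, 28100 and 28900 in HL60 late, 47700, 49000 and 71200 in ML1 late and 22700, 21400 and 28000 in ctrl, with *Hspa8*, *Hsp90aa1* or *Hsp90ab1* (−0.56, a call lost without ML1 late replicate 583 (−0.40)) the most abundant member in each library. Against the shared ctrl, 1 member was called higher in HL60 late (6.46% of all genes) and 11 in ML1 late (9.89%).

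*Hspd1* and *Hspe1* encode the mitochondrial chaperonin and its lid, and they lie head to head on chromosome 1, chr1:55077835-55088243, minus strand and chr1:55088132-55091307, plus strand. *Hspe1* had 7.77, 7.37 and 7.38 in HL60 late and 8.99, 8.45 and 9.25 in ML1 late and differed by −1.39 (SE 0.25, adjusted p 0.000358). *Hspd1* had 9.42, 9.09 and 9.88 against 10.34, 10 and 11.18 and differed by −1.05 (adjusted p 0.00711), a call lost without ML1 late replicate 583 (−0.71). Their 5′ ends overlap. The methods call the reads strand-specific, and whether the counts divide the shared stretch by strand was not tested.

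Because these genes moved together, their promoters were searched on both strands for the heat shock element GAANNTTCNNGAA, in which N is any base. RefSeq promoters of 300 bases around the start (build GRCm38.p6) were matched for 11 of the 16 tested heat shock genes, of which 3 held the element: *Hsph1*, *Hspe1* and *Chordc1*. Of the 8 called members with a promoter, 2 held it. Of all 32851 promoters, 0.603% held it, and of the 9443 promoters of tested genes 0.413%. Other elements were searched as well and are not reported here. *Chordc1* was not called, so a match does not mark the genes that differed, and absence of a match says only that these letters are not in the window. The promoters of the pair that was called are shown 5′ to 3′ with the matches in capitals, at chr5:149636287-149636586, minus strand, for *Hsph1* and chr1:55087898-55088197, plus strand, for *Hspe1*, where 2 matches overlap.
Hsph1: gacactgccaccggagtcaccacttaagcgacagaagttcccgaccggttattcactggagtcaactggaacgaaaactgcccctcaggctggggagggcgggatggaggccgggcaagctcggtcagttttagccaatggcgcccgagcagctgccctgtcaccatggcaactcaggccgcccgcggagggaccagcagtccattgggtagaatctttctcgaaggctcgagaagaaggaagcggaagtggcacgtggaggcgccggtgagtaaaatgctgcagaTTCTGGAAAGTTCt
Hspe1: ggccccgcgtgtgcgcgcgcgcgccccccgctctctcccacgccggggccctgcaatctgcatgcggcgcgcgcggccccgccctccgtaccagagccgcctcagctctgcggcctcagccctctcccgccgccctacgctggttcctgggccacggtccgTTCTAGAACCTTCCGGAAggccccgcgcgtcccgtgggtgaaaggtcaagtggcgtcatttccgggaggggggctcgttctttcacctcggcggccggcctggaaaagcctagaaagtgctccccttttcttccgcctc

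Immediate early genes are transcribed within minutes of a stimulus. Of 26 tested, 11 were called lower in HL60 late than in ML1 late and 1 higher, beside 0.932% and 3.16% of all genes, and 14 were not called. *Jun* (chr4:95049034-95052222, minus strand), a subunit of the AP-1 factor, had 12.81, 13.10 and 12.95 in HL60 late, 13.78, 13.83 and 14.05 in ML1 late and 12.32, 12.53 and 12.82 in ctrl, and differed by −0.93 (SE 0.13, adjusted p 1.02e-05). *Klf6*, a zinc finger factor of injury responses, had 11.78, 11.91 and 11.98 against 12.63, 13 and 12.93 and differed by −0.97 (adjusted p 3.51e-06). *Dusp1*, the phosphatase that switches off MAP kinases, had 12.51, 12.85 and 12.66 against 13.44, 13.44 and 13.57 and differed by −0.81 (adjusted p 2.18e-05). *Egr1* differed by −0.71 (adjusted p 1.2e-05), *Fosb* by −0.87 (adjusted p 0.000349) and *Fos* by −0.45 (adjusted p 0.0206). For *Fosb* the ctrl mean of 12.11 lay at the level of ML1 late, whereas for *Jun* the ctrl mean of 12.56 lay under the means of both lines. The *Fos* call was lost without HL60 late replicate 397 (−0.42) and without ML1 late replicate 583 (−0.38).

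*Fosl1*, an AP-1 subunit of migrating cells, had 5.08, 3.76 and 4.95 in HL60 late and 6.49, 6.27 and 6.77 in ML1 late, and differed by −1.91 (SE 0.57, adjusted p 0.0659). Its call was lost without HL60 late replicate 398 (−1.49) and without each ML1 late library in turn (−1.92 without 581, −2.03 without 582, −1.78 without 583). *Phlda1*, a regulator of growth factor signals, had 9.04, 9.25 and 9.20 against 10.79, 10.52 and 11.24 and differed by −1.69 (SE 0.20, adjusted p 7.71e-07). *Hmga1*, a chromatin protein of growing cells, had 6.38, 6.91 and 7.22 against 8.44, 7.88 and 9.10 and differed by −1.63 (adjusted p 0.0749), a call lost without HL60 late replicate 397 (−1.41) or 398 (−1.67) and without ML1 late replicate 581 (−1.65) or 583 (−1.32). The immediate early list had a median of −0.53, and after rescaling 16 were called, all lower. The higher member was the nuclear receptor *Nr4a2* (0.99, adjusted p 0.0608), whose call was lost without HL60 late replicate 397 (0.85) or 398 (0.95) and without ML1 late replicate 582 (0.86) or 583 (0.95) and after rescaling (0.74).

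Chemokines that recruit monocytes were among the genes with the largest negative differences. *Ccl2* (ENSMUSG00000035385, chr11:82035571-82037453, plus strand), the main monocyte attractant, had 7.55, 7.69 and 7.69 in HL60 late, 10.31, 9.64 and 10.75 in ML1 late and 6.25, 6.67 and 5.81 in ctrl. It differed by −2.59 (SE 0.40, adjusted p 5.39e-05), with both lines above ctrl and ML1 late the further. The related *Ccl7* had 5.50, 4.75 and 5.25 against 6.31, 6.66 and 7.42 and differed by −1.63 (adjusted p 0.0854), a call that ended without HL60 late replicate 397 (−1.80), 398 (−1.42) or 399 (−1.67) and without ML1 late replicate 582 (−1.70) or 583 (−1.32). The neutrophil attractant *Cxcl1* had 7.15, 7.65 and 7.62 against 8.52, 8.75 and 9.30 and differed by −1.39 (adjusted p 0.0256), a call lost without HL60 late replicate 397 (−1.23) and without ML1 late replicate 583 (−1.16). The cytokine *Lif* had 4.45, 4.62 and 4.91 against 5.81, 7.15 and 5.74 and differed by −1.57 (SE 0.49, adjusted p 0.0817). That call ended without ML1 late replicate 582 (−1.11) and without HL60 late replicate 397 (−1.47), 398 (−1.55) or 399 (−1.70).

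*Cxcl13* (chr5:95956951-95961068, plus strand), a chemokine that attracts B cells, went the other way. It had 5.89, 7.26 and 6.18 in HL60 late, 4.27, 3.91 and 3.06 in ML1 late and 2.83, 2.78 and 2.80 in ctrl. Each ML1 late library lay above every ctrl library, but that difference from ctrl was not called (0.94, adjusted p 0.16). The difference between the lines was 2.70 (SE 0.45, adjusted p 0.000147). In the list of 32 tested NF-kB targets, chemokines and cytokines it was the member called higher, while 7 were called lower, among them *Ccl2*, *Ccl7*, *Cxcl1* and *Lif*, beside 3.16% and 0.932% of all genes. The list median was −0.36, and after rescaling 1 was called higher and 11 lower. *Nfkbia*, the feedback inhibitor of NF-kB, was not called (−0.62, adjusted p 0.323) but was after rescaling (−0.87).

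Of 38 tested interferon-stimulated genes, 2 were called (5.3%, beside 4.09% of all genes), both lower in HL60 late, with a median of −0.55. After rescaling, 9 were called lower. As deposited, the difference was positive in 4 of the 38. An unadjusted limma p under 0.05 was reached by 12, beside 10.9% of all genes. The libraries of the lines did not overlap in 18, beside 21.8% of all genes. *Cxcl10*, an interferon-induced chemokine, had 6.36, 5.60 and 7.03 in HL60 late, 8.13, 7.48 and 8.07 in ML1 late and 4, 3.77 and 4.71 in ctrl, and differed by −1.56 (SE 0.49, adjusted p 0.0852). That call was lost without ML1 late replicate 581 (−1.45), 582 (−1.77) or 583 (−1.48) and without HL60 late replicate 397 (−1.58) or 398 (−1.20). *Irf9*, a factor of interferon signaling, had 7.37, 7.27 and 7.65 against 8.52, 8.49 and 8.51 and differed by −1.08 (adjusted p 0.0227), a call lost without HL60 late replicate 398 (−0.99). *Isg15* and *Usp18* were not called (−0.78 and −1.33), and *Usp18* was after rescaling (−1.57). Against the shared ctrl, 19 of the list were called higher in HL60 late (6.46% of all genes) and 33 in ML1 late (9.89%).

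Of 24 MHC class I presentation genes, *H2-Q7* was called lower in HL60 late (−1.30, adjusted p 0.00945). A single call in 24 is near the 4.09% of all genes, and the list median was −0.30. After rescaling 4 were called lower. *H2-Q6*, a near-identical copy of *H2-Q7*, differed by −0.91 and was not called, so the division of reads between them is uncertain. *Cd74*, the invariant chain of MHC class II, had 2.61, 2.56 and 2.97 in HL60 late, 5.18, 3.40 and 5.46 in ML1 late and 2.58, 2.63 and 4.33 in ctrl, and differed by −1.97 (SE 0.47, adjusted p 0.0116). *Cd74* passed the filter on low values through ML1 late, and it was also called with no filter (adjusted p 0.0935). Its call was lost without ML1 late replicate 583 (−1.58).

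Markers of other cell types were read as lists, whose counts stand beside 3.16% of all genes called higher and 0.932% lower. Of 20 tested neutrophil and myeloid genes, *Mmp9* and *Cybb* were called, both lower in HL60 late, while 15 of the 20 had a positive difference and the median was 0.10 (−0.14 after rescaling). *Cybb*, the oxidase subunit of phagocytes, had 4.97, 5.80 and 6.24 against 7.73, 7.14 and 7.86 and differed by −1.91 (adjusted p 0.0367), and the call was lost without HL60 late replicate 397 (−1.56) and without ML1 late replicate 581 (−1.83) or 583 (−1.77). The list's summed signal was 605, 593 and 491 in HL60 late and 1300, 935 and 1140 in ML1 late, with *Mmp9* the most abundant in 5 of the 6 libraries and *Lyz2* in the other. The defining macrophage genes *Adgre1*, *Csf1r*, *Cd68* and *Spi1* were too low to be tested, and *Ptprc*, whose product the methods used to remove mouse blood cells, was near the floor. The part of myeloid cells in the differences of *Cd74*, *Cybb* and *Mmp9* was not tested.

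Of 21 tested endothelial genes, 2 were called higher in HL60 late, *Ly6c1* (2.02) and *Stab2* (1.37), with a list median of 0.56, and after rescaling 1. The *Stab2* call was lost without HL60 late replicate 397 (0.99) or 398 (1.43) and without ML1 late replicate 581 (1.38) or 583 (1.15) and after rescaling (1.12), as well as with libraries shifted to the same median (1.31). The summed endothelial signal was 1570, 1430 and 1380 in HL60 late and 1090, 984 and 1130 in ML1 late, with *Eng* the most abundant member throughout. Of 18 erythroid genes limma called 0, 3 had an unadjusted p under 0.05, and their sum was 941, 945 and 941 against 853, 824 and 803. The tenocyte, periosteal and dermal fibroblast list had 5 of 14 called higher, *Fmod*, *Dpt* (1.19), *Postn*, *Cthrc1* (2.21) and *Thbs4*, with a median of 1.03, and after rescaling 4. The *Dpt* call was lost without HL60 late replicate 399 (0.94) and without ML1 late replicate 581 (1.16) or 583 (1) and after rescaling (0.94). The list's sum was 11500, 14400 and 11900 against 6520, 5270 and 5680. Of 11 skeletal muscle genes limma called 0, with an unadjusted p under 0.05 for 1, and their sum was 575, 482 and 343 against 618, 524 and 553. Of 6 osteoclast genes 1 was called lower, *Mmp9*, while 4 had a positive difference and the median was 0.47 (0.22 after rescaling), and 4 had an unadjusted p under 0.05. Of 2 lymphoid genes limma called 0, with 0 at an unadjusted p under 0.05, and 1 was called lower after rescaling. The part of these cell types in the differences was not tested.

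In several lists of core machinery limma called 0 genes. An unadjusted p under 0.05, which 10.9% of all genes had, was reached by 8 of 86 cytosolic ribosomal protein genes (median difference 0), 3 of 80 nuclear (0.09) and 0 of 13 mitochondrial genes of oxidative phosphorylation (0.06), and 3 of 34 cell cycle genes (0.22). It was reached by 2 of 22 glycolytic genes (−0.20), 5 of 22 oxidative stress genes (−0.14), 1 of 20 clock genes (−0.13) and 0 of 22 HOX genes (0.15). Leaving out a library turned the mitochondrial median (−0.15 without ML1 late replicate 583) and the clock median (0.05 without HL60 late replicate 399). After rescaling, 7 ribosomal protein genes were called lower in HL60 late, as were 1 glycolytic and 1 oxidative stress gene, and 0 in the other 5 lists. The lists that follow had 1 or 2 calls each, where 4.09% of all genes were called. Of 25 cholesterol genes, *Abca1*, the cholesterol exporter, was called higher (1.17), with 1 more called lower after rescaling, and of 14 fatty acid genes the desaturase *Fads2* (1.54). Among 24 genes of the unfolded protein response 1 was called in each direction. *Hspa5*, the chaperone of the endoplasmic reticulum, was the lower (−0.81) and *Vldlr*, a lipoprotein receptor, the higher (1.41).

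Smaller lists held 1 to 3 calls each, where 4.09% of all genes were called. In the smooth muscle and pericyte list of 19, *Myh11*, the contractile myosin, was called higher in HL60 late (0.85) and *Steap4*, a metalloreductase of stroma, lower (−0.57). The *Myh11* call was lost without HL60 late replicate 397 (0.91), 398 (0.90) or 399 (0.74) and without ML1 late replicate 582 (0.54) or 583 (0.82) and after rescaling (0.60), as well as with quantile normalization or a shift to the same median (0.79 in both), and the *Steap4* call without HL60 late replicate 397 (−0.60) or 399 (−0.46) and without ML1 late replicate 581 (−0.56), 582 (−0.59) or 583 (−0.55). After rescaling 2 of the 19 were called, both lower. Of 25 hypoxia response genes, the collagen-modifying enzymes *Plod2* (1.01) and *Lox* (0.54) were called higher and the oxygen-regulated factor *Epas1* lower (−0.47). The *Lox* call was lost after rescaling (0.29), and that of *Epas1* without HL60 late replicate 397 (−0.50), 398 (−0.50) or 399 (−0.41) and without ML1 late replicate 581 (−0.40) or 583 (−0.47). After rescaling 1 of the 25 was called higher and 2 lower. Of 18 complement genes 2 were called higher, among them the inhibitor *Cd59a* (2.03), with a list median of −0.16, and after rescaling 1 was called in each direction. *Tbx2*, a limb patterning factor, was called higher (1.41), 1 of 3 higher calls among 27 such factors, of which after rescaling 2 were called higher and 1 lower. *Hhip*, a decoy receptor for Hedgehog ligands, was the called gene of 21 in the Notch and Hedgehog list (1.53), lost without HL60 late replicate 397 (1.55) or 398 (1.35) and without ML1 late replicate 581 (1.38) or 583 (1.45) and after rescaling (1.28), when 1 of the list was called lower. Among 17 glucocorticoid-responsive genes the calls were *Dusp1* and *Errfi1*, a brake on the EGF receptor (−0.80). Of 22 p53 and senescence genes 1 was called in each direction, the higher being the kinase *Plk2* (1.15), with a list median of −0.08, and after rescaling 1 was called higher and 3 lower.

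Among RNA quality and sex-linked transcripts, CT010467.1 (0.57, adjusted p 0.0281) was called higher in HL60 late and the nuclear RNA *Malat1* (−0.66, adjusted p 0.0524) lower. The former call was lost without HL60 late replicate 398 (0.52), without ML1 late replicate 582 (0.43) and after rescaling (0.32). The latter was lost without HL60 late replicate 398 (−0.56) and without ML1 late replicate 582 (−0.34). With quantile normalization the difference of CT010467.1 was 0. That method gives a gene of the same rank in every library the same value throughout, so it cannot test the call of so abundant a gene. *Xist*, made by the inactive X chromosome, had 13.36, 12.89 and 13.17 in HL60 late and 13.82, 14.13 and 13.51 in ML1 late and was called lower (−0.68, adjusted p 0.00304). It was high in all 21 libraries, and the Y-linked *Ddx3y*, *Eif2s3y*, *Kdm5d* and *Uty* were near the floor in all, although the study's methods describe cohorts of both sexes. The part of these transcripts in the other differences was not tested.

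A pair of further named genes belonged to none of the lists. *Col26a1*, a collagen-like secreted protein, had 2.87, 3.60 and 2.91 in HL60 late and 5.29, 4.25 and 4.73 in ML1 late, and differed by −1.63 (adjusted p 0.019), a call lost without HL60 late replicate 397 (−1.51) or ML1 late replicate 581 (−1.37). It passed the filter on low values through ML1 late, and it was also called with no filter (adjusted p 0.0849). *Iqcn*, a gene of unclear role in stroma, had 5.39, 6.83 and 7.46 against 7.48, 8.95 and 8.26 and differed by −1.67 (adjusted p 0.0259), a call lost without HL60 late replicate 397 (−1.09) or ML1 late replicate 582 (−1.31).

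The genes called between the lines were also placed against ctrl. Of the 410 genes higher in HL60 late, the ctrl mean was above both lines in 323, between them in 65 and below both in 22. The median difference from ctrl of these genes was −0.82 in HL60 late and −2.13 in ML1 late. Of the 121 genes lower in HL60 late, the ctrl mean was below both lines in 83, between them in 34 and above both in 4, with medians of 0.28 in HL60 late and 1.33 in ML1 late. After rescaling to equal totals the counts were 249, 106 and 55 for the higher genes and 109, 12 and 0 for the lower ones. The medians were then −0.25 in HL60 late and −1.31 in ML1 late for the higher genes, and 0.85 and 2.14 for the lower. Over all genes, 1778 were called between HL60 late and ctrl (838 higher, 940 lower) and 2851 between ML1 late and ctrl (1283 higher, 1568 lower). Rescaling moved the medians of all genes in these comparisons to 0.58 and 0.84, and then 93.1% of the calls were higher than ctrl in each. The ctrl libraries enter both comparisons, so their counts are not independent.

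The same lines were compared in ch+ cells of the early stage, which share no library with the late comparison. The model's estimate of spread for each gene is shared, so the comparisons are not fully independent. In the early cells 2 of 12976 genes were called (0.0154%), and 988 had an unadjusted p under 0.05. Both are matrix genes and both were also called late, which makes them 100% of the early list and 0.377% of the late list. *Aspn* (chr13:49544443-49567565, plus strand), asporin, a proteoglycan that binds collagen and TGF-beta, had 9.91, 10.25 and 9.09 in HL60 ch+ and 7.35, 8.97 and 6.84 in ML1 ch+, a difference of 2.03 (SE 0.37, adjusted p 0.041). Late it had 9.99, 10.53 and 10.85 in HL60 and 8.39, 8.38 and 8.54 in ML1, a difference of 2.02 (SE 0.37, adjusted p 0.000554). *Postn* (chr3:54361109-54391037, plus strand), periostin, which links collagen in periosteum, had 11.96, 12.19 and 11.78 in HL60 ch+ and 10.96, 11.35 and 10.56 in ML1 ch+, a difference of 1.02 (SE 0.18, adjusted p 0.041). Late it had 11.81, 12.01 and 11.93 in HL60 and 10.69, 10.40 and 10.32 in ML1, a difference of 1.45 (SE 0.18, adjusted p 2.45e-06). Without HL60 ch+ replicate 523 or 524, or without ML1 ch+ replicate 541, the early count was 0. With no filter neither gene was called, and with the early ch+ groups fitted alone *Aspn* was not. The change between stages was −0.01 for *Aspn* (adjusted p 0.998) and 0.43 for *Postn* (adjusted p 0.644).

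Whether the line difference itself changed between the stages was tested as an interaction, late minus early ch+. The early cells were sorted for the red label and the late cells without regard to it, so stage and label cannot be told apart here. The interaction was called for 325 of 12976 genes (2.5%), 229 positive and 96 negative. Rescaling to equal totals gave 433, of which 31.9% were positive in place of 70.5%, and moved the median change over all genes to −0.30. For *Bglap* the early difference was −0.14 and the change 3.46 (SE 0.21, adjusted p 3.76e-12). The early ch+ libraries had 14.90, 14.72 and 14.64 in HL60 and 14.72, 14.94 and 15.03 in ML1, which overlap. For *Hsph1* the early difference was 0.87, of the opposite sign but not called (adjusted p 0.568), and the change was −3.31 (adjusted p 8.51e-05). *Mfap4* had an early difference of 2.07 that was not called (adjusted p 0.137), and its change of 0.78 was not called either (adjusted p 0.761).

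*Ptges*, which makes prostaglandin E2, was named for the change alone. It had 3.77, 4.48 and 4.18 in HL60 late and 4.56, 5.75 and 6.32 in ML1 late, a difference of −1.40 that was not called (adjusted p 0.186), and an early difference of 1.47. The change was −2.87 (SE 0.72, adjusted p 0.0275). The late difference was called without ML1 late replicate 581 (−1.89), after rescaling (−1.64), with sample weights (−1.37) and with the late groups fitted alone. Without any other library it was not called, and it was −1.01 without ML1 late replicate 583.

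**Figure D3:**
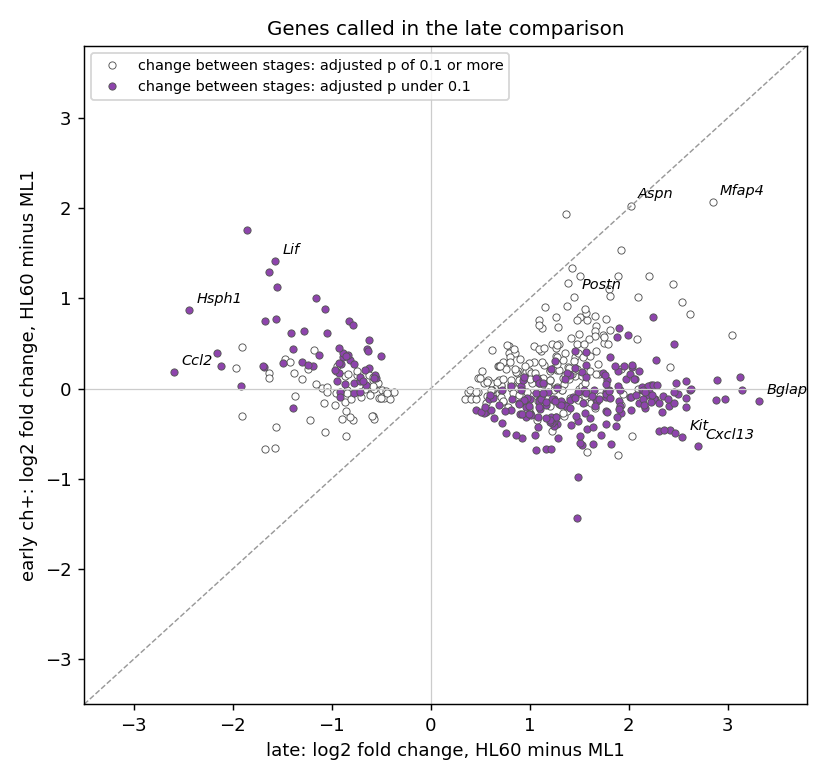
Line difference, HL60 minus ML1, of each gene called in the late comparison: late (horizontal axis, log2) against early ch+ cells (vertical axis, log2), filled where the change between the stages was called. *Aspn* lies on the dashed line of equal differences, while *Bglap* and *Ccl2* lie near 0 on the early axis.

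By list, the interaction was called in 18 of 22 osteoblast genes, 10 of 16 heat shock genes, 9 of 26 immediate early genes, 17 of 44 interstitial matrix genes and 6 of 22 cartilage genes, beside 2.5% of all genes. After rescaling the counts were 17, 12, 14, 17 and 5, in the same order. The median early differences of these lists were −0.04, 0.24, 0.20, 0.03 and 0.52. The osteoblast and cartilage calls were all positive, and the heat shock and immediate early calls all negative. Of the interstitial matrix calls 14 were positive and 3 negative, and after rescaling 12 and 5. The cartilage gene *Chad* spread widely among the early libraries, with 9.96, 9.18 and 6.69 in HL60 ch+ and 9.09, 8.37 and 8.67 in ML1 ch+. For the interferon-stimulated genes 1 of 38 was called, 3 after rescaling, and the median early difference was 0.19. The interaction contains the late libraries, so the counts of these lists are not independent of the late calls. Of all genes with a called interaction, 204 were also called higher in HL60 late and 58 lower.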

How the data were processed

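Expression was measured by RNA sequencing of sorted Nes-low cells in 21 libraries of 7 groups of 3. The authors aligned reads with STAR 2.5.1b and quantified them with RSEM 1.2.29 on mm10, as named in the submitters' processing notes, and deposited regularized log2 values made with DESeq2 (1.10.1 in those notes, a later version in the methods, which also name base 10 for the logarithm). These range from −2.33 to 22.44. From them, in R 4.3.3, limma 3.58.1 fitted 1 linear model over the 7 groups, with empirical Bayes moderation, a mean-variance trend and Benjamini-Hochberg adjustment. Genes needed a mean of at least 3.32 (log2 of 10) over the 21 libraries, which left 12976 of 26852. Symbols for 26722 came from GENCODE release M21.

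Genes were named by rule: the 15 called genes with the largest difference in each direction whose libraries did not overlap, the sorting markers, and those with the largest called change between stages. Some genes chosen this way are not reported here. Others were named from gene lists after their values were seen. The members and lists were chosen with earlier results of these data known, and the heat shock element after seeing the values. Promoters came from RefSeq (GRCm38.p6). The code was tested on simulated data. Alternatives covered the filter, scaling, variance model, threshold and each left-out library.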

Additional observations from a re-analysis of the deposited data

Results flagged for a closer look

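The line difference (HL60 minus ML1) was tested for a change between the late stage and early ch+ cells, as the interaction term of the limma model. It was called for 325 genes, and each named gene for which it was called is listed here with that change on the log2 scale, late minus early. The groups hold 3 libraries each, too few to test for outlying libraries.

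Positive changes, toward HL60 at the late stage, were as follows. Genes of bone and its mineral showed changes of 3.46 in *Bglap*, 3.16 in *Bglap2*, 2.64 in *Bglap3*, 3.02 in *Phospho1*, 2.80 in *Slc13a5*, 1.92 in *Alpl*, 2.01 in *Dmp1*, 1.28 in *Phex*, 1.85 in *Sp7* and 2.17 in *Omd*. For genes of the collagen matrix and of enzymes that modify collagen, the values were 2.56 in *Col1a1*, 2.38 in *Col1a2*, 1.80 in *Dcn*, 1.46 in *Fmod*, 1.04 in *Lum*, 1.07 in *Fn1*, 2.96 in *Thbs4*, 2.25 in *Cthrc1*, 1.77 in *Sparc*, 1.31 in *Plod2* and 0.80 in *Lox*. Cartilage genes, other matrix proteins, an anhydrase and metalloproteases showed 2.51 in *Col11a2*, 2.67 in *Chad*, 2.99 in *Cpz*, 3.07 in *Mfap5*, 2.62 in *Car3*, 2.39 in *Mmp16* and 0.94 in *Mmp2*. Among ligands, receptors and regulators the change was 2.78 in *Bmp3*, 2.19 in *Smad9*, 2.28 in *Sfrp2*, 1.56 in *Igf1*, 1.70 in *Gas6*, 3.08 in *Kit*, 3.34 in *Cxcl13*, 2.15 in *Hhip* and 1.54 in *Tbx2*. Channels and guidance molecules showed 2.78 in *Kcnk1*, 1.31 in *Kcnma1*, 1.83 in *Robo2*, 1.24 in *Sema3a*, 1.69 in *Sema3c* and 1.47 in *Sema3d*. In endothelial and lipid genes and a complement inhibitor it was 2.27 in *Ly6c1*, 1.62 in *Vldlr*, 1.34 in *Abca1*, 1.70 in *Fads2* and 1.77 in *Cd59a*.

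Negative changes were as follows. Chaperones showed changes of −3.31 in *Hsph1*, −2.42 in *Hspb1*, −1.77 in *Hsp90aa1*, −0.70 in *Hsp90ab1*, −1.67 in *Hspa1a*, −1.95 in *Hspa1b*, −1.28 in *Hspa8*, −1.17 in *Hspe1* and −1.92 in *Dnajb1*. For immediate early genes, the values were −1.21 in *Jun*, −1.18 in *Klf6*, −1.13 in *Dusp1*, −0.68 in *Egr1*, −0.92 in *Fosb* and −1.93 in *Phlda1*. Chemokines, a cytokine and a prostaglandin synthase showed −2.76 in *Ccl2*, −2.92 in *Ccl7*, −1.83 in *Cxcl1*, −2.33 in *Cxcl10*, −2.98 in *Lif* and −2.87 in *Ptges*. For a protease inhibitor, a gelatinase, type VI collagen and the X-inactivation RNA it was −1.38 in *Timp3*, −1.94 in *Mmp9*, −0.72 in *Col6a1*, −0.82 in *Col6a2* and −0.76 in *Xist*. Of these genes, *Ptges* was not called in the late comparison itself (−1.40, adjusted p 0.186).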

How the results depend on the processing

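The late count of 531 became 990 with the 6 late libraries fitted alone, 1183 with sample weights and 352 with a difference of at least 1 required. Under the other filters, scalings and variance models it stayed within 1.5 times, and with 1 library left out it was 383 to 453. The early ch+ count of 2 became 8 with no filter, 4 with quantile normalization, 1 with robust moderation, and 0 with no trend or with sample weights, and 0 to 6 with 1 library left out. The 8 did not include the 2. The interaction count was 240 to 332 with 1 library left out. Between HL60 late and ctrl the count was 5527 after rescaling and 1113 with a difference of at least 1, and between ML1 late and ctrl 8781 and 1899. With 1 library left out these were 1315 to 1662 and 2203 to 2674. Rescaling is the alternative that sets all libraries to equal totals. The causes of the other shifts were not tested.

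The late values of *Ptprc* lie near the floor, and its difference, −0.01 with quantile normalization and −0.17 after rescaling, carries no direction. No called gene named in the text changed sign with a library left out, while 33 of 115 lost the call without at least 1 library and 103 of 115 were called after rescaling. With no filter the call was lost by *Ccl7*, *Chad*, *Col4a2*, *Col9a3*, *Cryab*, *Cxcl1*, *Cxcl10*, *Cybb*, *Dkk3*, *Dpt*, *Epas1*, *Fosl1*, *Fst*, *Hhip*, *Hmga1*, *Hspa1b*, *Iqcn*, *Lif*, *Malat1*, *Myh11*, *Nr4a2*, *Pdgfrb*, *Spp1*, *Stab2* and *Wnt4*. With no trend it was lost by CT010467.1, *Ccl7*, *Col4a1*, *Col4a2*, *Col9a3*, *Cxcl10*, *Cybb*, *Dpt*, *Epas1*, *Fos*, *Fosl1*, *Fst*, *Hmga1*, *Hsp90ab1*, *Iqcn*, *Lama4*, *Lif*, *Lox*, *Malat1*, *Myh11*, *Nr4a2*, *Pdgfrb*, *Spp1*, *Steap4* and *Wnt4*. With robust moderation *Col9a3*, *Malat1* and *Myh11* lost it, with the late groups alone CT010467.1 and *Malat1*, and with a mean of at least 5 CT010467.1. Of genes not called, *Runx2* was called with a mean of at least 5, robust moderation, sample weights and the late groups alone. *Dlx5*, *H2-Q6*, *Ptges* and *Usp18* were called in the last 2 settings, *Bag3*, *Lepr*, *Nes* and *Nfkbia* with sample weights, and *Acan* and *Isg15* with the late groups alone. Rescaling lowers every late difference by the same amount, so list medians near 0 changed sign with it (16 of 45). With 1 library left out, 20 of 270 medians changed sign, all in lists whose median was −0.15 to 0.07, as did 3 of 45 with quantile normalization and 4 of 45 with a shift to the same median. No paired analysis was possible because the groups compared share no replicate number. The paper takes ch- cells from the same marrow as the ch+ cells. Whether ch+ and ch- libraries share mice is not in the labels, and the model treated them as independent. The depth of each library could not be recovered, so the precision of low genes is unknown.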
